A study of Homo sapiens with 24 samples.

Results

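MAB21L2, LRRC17, HTR2B, C7, KCTD12, MSN and CD68 are 7 of the 60564 rows of the deposited expression table, and all 7 were among the 15903 genes with at least 1 FPKM (fragment counts corrected for the length of the transcript and the size of the library) in at least 3 libraries. They were chosen by symbol, for the largest rises in SH-SY5Y cells with NDUFS6 knocked down over the control of that knockdown, or for a change of opposite direction in SK-N-BE(2) cells. The values of both knockdown comparisons therefore chose the genes, and they are given below as a description without a test. The overexpression libraries took no part in that choice, and those comparisons are tested.

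The series holds 24 RNA libraries in 8 groups of 3, from 2 human neuroblastoma lines, SH-SY5Y and the MYCN-amplified SK-N-BE(2). In each line, cells received a lentiviral short hairpin RNA against NDUFS6 (knockdown) with a knockdown empty vector as its control, or a lentiviral NDUFS6 construct (overexpression) with an overexpression empty vector as its control. All groups share the lentiviral infection with polybrene, the puromycin selection and the serum-containing medium. The sources used here name neither the hairpin sequence nor the promoter of the construct, nor whether a group's 3 libraries came from separate infections. The p-values then cover only the spread among those libraries, possibly a technical one. NDUFS6 encodes a subunit of complex I of the mitochondrial respiratory chain.

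NDUFS6 itself was at 3.11, 3.98 and 4.98 FPKM in SH-SY5Y knockdown libraries, against 11.1 to 12.1 FPKM in their controls. It was at 199 to 214 FPKM in SH-SY5Y overexpression libraries, against 10.2 to 11.5 FPKM in their controls. In SK-N-BE(2) the knockdown libraries had 1.09 to 1.61 FPKM, against 9.29 to 12.2 FPKM in their controls, and the overexpression libraries had 14.9 to 19 FPKM, against 11.8 to 13.9 FPKM in theirs. The groups did not overlap in any of the 4 contrasts, and the rise in SK-N-BE(2) overexpression was small beside that in SH-SY5Y. The deposited values of a library summed to 249708 to 276091 FPKM, with 12607 to 14018 genes at 1 FPKM or more and 26.3 to 38.1% of the sum in mitochondrially encoded genes. Read depth is unknown, because the table gives no counts. Of 14 adrenergic neuroblastoma markers, 13 reached 1 FPKM in each SH-SY5Y group and 14 in each SK-N-BE(2) group.

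The 7 genes belong to different systems. MAB21L2 is a MAB21 family protein needed for eye and body wall development, LRRC17 is a secreted leucine-rich repeat protein, and C7 is a terminal complement component that joins the membrane attack complex. HTR2B is a serotonin receptor that signals through Gq proteins, and KCTD12 is an auxiliary subunit of GABA-B receptors. MSN (moesin) links actin filaments to the plasma membrane together with its paralogs ezrin and radixin, and CD68 is a lysosomal glycoprotein of the LAMP family that is widely used as a macrophage marker. Neuroblastoma cells occur in an adrenergic state, close to sympathetic neuroblasts, and in a mesenchymal state that expresses extracellular matrix and adhesion genes.

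RefSeq promoter windows (GRCh38.p14) were matched by symbol for LRRC17, C7, KCTD12, MSN and CD68, 5 of the 7 genes. Windows of 250 bases before the start listed by RefSeq were searched on both strands for 4 motifs. They were the letters TATAAA for a TATA box, CCAAT for the box of that name, GGGCGG for a GC box and TGANTCA for an AP-1 motif. Among all 34943 promoters of that length, 10.8% held the TATA box, 32.0% the CCAAT box, 42.5% the GC box and 6.6% the AP-1 motif. LRRC17, KCTD12 and the downstream start of MSN are shown, since these windows hold few or no annotated exon bases and differ widely in G and C among genes that were all highest, or next to highest, in SH-SY5Y knockdown. Capitals mark matches to the 4 motifs, and each line reads 5′ to 3′ along the gene. LRRC17 is at chr7:102912750-102912990 (+ strand, stopping before the first annotated exon base), KCTD12 at chr13:76886406-76886655 (- strand) and MSN at chrX:65667404-65667653 (+ strand).
LRRC17: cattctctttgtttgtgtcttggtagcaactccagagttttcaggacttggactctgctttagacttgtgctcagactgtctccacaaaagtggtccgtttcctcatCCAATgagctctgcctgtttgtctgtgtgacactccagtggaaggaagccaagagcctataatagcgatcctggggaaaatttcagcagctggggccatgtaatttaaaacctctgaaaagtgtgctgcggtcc
KCTD12: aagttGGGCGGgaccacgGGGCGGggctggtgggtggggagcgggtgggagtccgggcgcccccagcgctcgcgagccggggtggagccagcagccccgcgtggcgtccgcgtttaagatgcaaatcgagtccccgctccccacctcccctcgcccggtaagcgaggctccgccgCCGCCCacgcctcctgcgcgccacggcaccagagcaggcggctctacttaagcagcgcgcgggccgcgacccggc
MSN: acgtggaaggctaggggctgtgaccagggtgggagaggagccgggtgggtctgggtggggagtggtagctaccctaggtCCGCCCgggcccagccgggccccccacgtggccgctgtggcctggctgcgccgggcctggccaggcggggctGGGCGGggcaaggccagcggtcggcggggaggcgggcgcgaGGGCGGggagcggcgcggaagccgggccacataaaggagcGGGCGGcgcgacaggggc

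The LRRC17 window held 48.0% G and C with 4 CG dinucleotides and 1 CCAAT box, that of KCTD12 75.6% with 34 CG dinucleotides and 3 GC boxes, and that of the downstream MSN start 78.0% with 26 CG dinucleotides and 4 GC boxes. The window of the upstream MSN start (chrX:65588127-65588376, not shown) also holds no annotated exon bases. It held 57.2% G and C with 5 CG dinucleotides and 1 GC box. The median over all promoters was 58.0% with 11 CG dinucleotides. By GENCODE annotation, 245 of the 250 bases of the C7 window and all 250 of the CD68 window are exon bases, so these windows are mostly transcribed sequence and not sequence before the start. The C7 window held 40.8% G and C with 2 CG dinucleotides and a TATA box match on the reverse strand, and the CD68 window held 51.6% with 1 CG dinucleotide and 1 AP-1 match. No motif of the 4 was found in all of these windows. A match is a description of letters and not of binding.

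By gene annotation (GENCODE 29, GRCh38), 3 of the 7 genes lie wholly inside another protein-coding gene on the opposite strand, against 2.26% of the 12391 protein-coding genes tested. MAB21L2, with 1 exon at chr4:150581922-150584693, lies inside LRBA and shares 53.8% of its exon bases with LRBA exons. LRRC17, at chr7:102912991-102944949 with 7 exon blocks, lies inside FBXL13 and shares 11.9%. HTR2B, at chr2:231108230-231125118 with 4 exon blocks, lies inside PSMD1 and shares 24.9%. The libraries were strand-specific per the labels, but the sources used here do not name the strand setting of the counting, so reads of a gene and of its host cannot be told apart with certainty. Among the hosts, PSMD1 had 24.4 to 26.6 FPKM in SH-SY5Y knockdown and 26.2 to 26.6 FPKM in its control. LRBA had 4.37 to 5.59 FPKM in knockdown and 4.07 to 4.52 FPKM in control, and FBXL13 had 0.517 to 0.56 FPKM in knockdown and 0.364 to 0.522 FPKM in control. LRBA and PSMD1 were not called in SH-SY5Y knockdown (log2 differences of 0.16 and -0.06), and FBXL13 was below the filter. In SK-N-BE(2), LRBA was lower together with MAB21L2. LRBA had 11.1 to 12.5 FPKM in knockdown and 15.6 to 15.9 FPKM in its control (log2 difference -0.41, limma adjusted p = 0.000548, and -0.0067 against the other control). It had 8.23 to 11.9 FPKM in overexpression and 11.3 to 12.5 FPKM in its control (-0.25, limma adjusted p = 0.0412), a call lost in 7 of 14 alternatives. Its part in the values of MAB21L2 was not tested.

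C7 lies at chr5:40909252-40982939 with 20 exon blocks, KCTD12 at chr13:76880166-76886390 in 1 exon, and MSN at chrX:65588377-65741931 with 19 exon blocks. None of the 3 shares exon bases with another gene. CD68, at chr17:7579467-7582113 with 5 exon blocks, shares 81.7% of its exon bases with AC016876.2, a transcript annotated on the same strand, so its value depends on how reads were divided between them and is uncertain. AC016876.2 had 8.07 to 9.68 FPKM in SH-SY5Y knockdown and 6.05 to 7.7 FPKM in its control, with 4.16 to 5.81 FPKM in SH-SY5Y overexpression and 4.97 to 5.09 FPKM in that control.

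In the order of log2 rise in SH-SY5Y knockdown, over 4088 genes that passed the test with at least 1 FPKM in knockdown, MAB21L2, LRRC17 and HTR2B held ranks 1, 2 and 3, C7 rank 5 and KCTD12 rank 7. Genes just outside the members included IGFBP3 at rank 4 (log2 difference 3.63), AC114284.1 at rank 8 (3.30) and DCN at rank 9 (3.07), and KCTD12 was the last member inside (3.34). CD68 followed at rank 56 and MSN at rank 748. All 7 members were called in SH-SY5Y knockdown (limma adjusted p under 0.05), where 56% of all genes tested were called, and 6 of 7 in SK-N-BE(2) knockdown, where 55.7% were. These counts follow from how the genes were chosen. In SH-SY5Y knockdown 26.3% of all genes tested were higher and 29.6% lower, and the counts of related genes below stand beside these shares.

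The term "switched on" fits the levels of some of these genes only. MAB21L2 and HTR2B were below 1 FPKM in every SH-SY5Y library other than knockdown, and LRRC17 was below 1 FPKM in both overexpression groups of that line and at 1.06 to 1.36 FPKM in the knockdown control. C7, KCTD12 and MSN were at several FPKM or more in all SH-SY5Y groups, and CD68 was at 1.68 to 2.32 FPKM in the knockdown control.

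**Figure D1:**
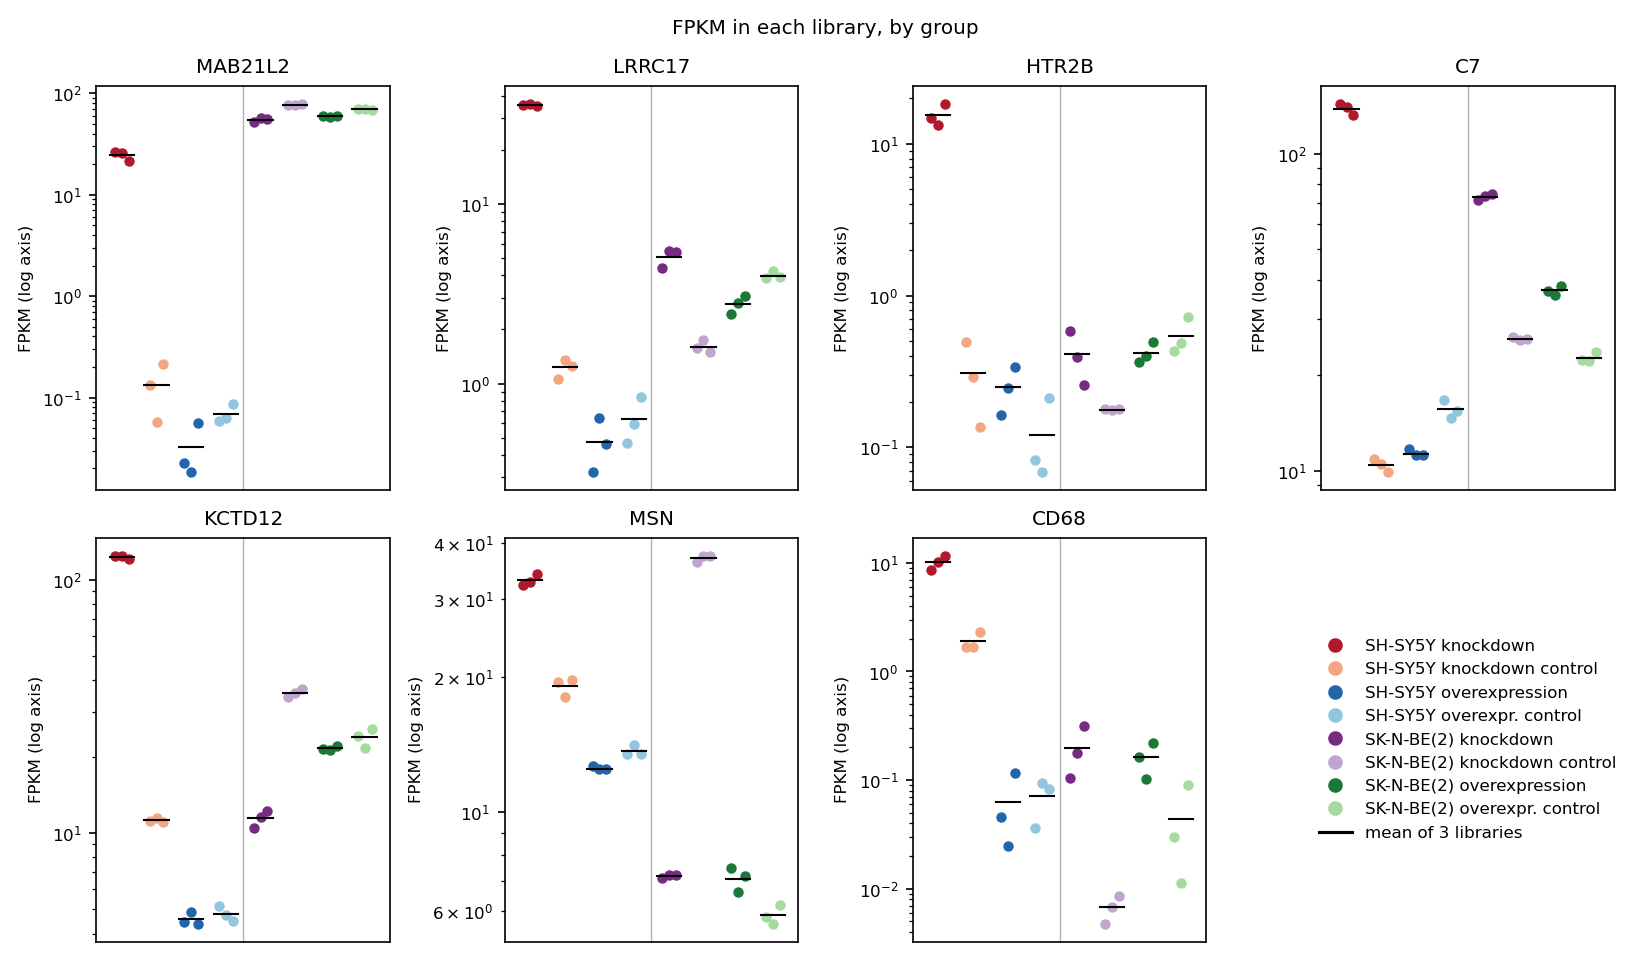
FPKM of the 7 genes in each of the 24 libraries, on a log axis, with 1 panel per gene. Points are libraries, horizontal lines are the means of 3 libraries, and the grey line separates SH-SY5Y (left) from SK-N-BE(2) (right). SH-SY5Y knockdown is the highest group for LRRC17, HTR2B, C7, KCTD12 and CD68, while MAB21L2 is higher in every SK-N-BE(2) group and MSN is highest in the SK-N-BE(2) knockdown control (36.2 to 37.4 FPKM).

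The gene with the largest rise was the developmental regulator MAB21L2. It had 26.2, 25.5 and 21.5 FPKM in SH-SY5Y knockdown, against 0.132, 0.0572 and 0.213 FPKM in the knockdown control. Every SH-SY5Y knockdown library stood far above every other SH-SY5Y library, all of which were close to 0. The means were 24.4 ± 2.54 and 0.134 ± 0.0782 FPKM (SD, n = 3 each), a ratio of 182, and the log2 difference on the log2(FPKM + 1) scale was 4.48 (SE 0.057), which understates a change that starts near 0 (6.76 with a pseudocount of 0.1). In SK-N-BE(2), MAB21L2 was present throughout, with 51.8, 56.6 and 55.9 FPKM in knockdown, against 77.3, 77 and 77.5 FPKM in its control. The knockdown libraries were lower without overlap there (log2 difference -0.49), so the 2 lines changed in opposite directions, from unlike baselines. By level, the order was SK-N-BE(2) knockdown control, overexpression control, overexpression and knockdown, then SH-SY5Y knockdown, with no overlap between neighbours. Below these, only the SH-SY5Y knockdown control and overexpression control overlapped.

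In overexpression, MAB21L2 had 0.0227, 0.0184 and 0.0558 FPKM in SH-SY5Y, against 0.0593, 0.0635 and 0.0857 FPKM in its control, and was not called between groups that were both near 0 (log2 difference -0.05, limma adjusted p = 0.543). In SK-N-BE(2) it had 58.9, 58.6 and 59.9 FPKM, against 70, 70.1 and 68.2 FPKM in its control. It fell there (log2 difference -0.23, SE 0.057, limma adjusted p = 0.0058, lower in 3 of 3 libraries), a call that was lost with a pseudocount of 0.1. Its host gene LRBA, with which it shares exon bases, had a log2 difference of -0.25 in the same libraries. The LRBA groups overlapped there, with 8.23 to 11.9 FPKM in overexpression and 11.3 to 12.5 FPKM in its control. The part of LRBA in the fall of MAB21L2 was not tested. The paralog MAB21L1 rose in SH-SY5Y knockdown (43.9 and 20 FPKM in knockdown and control, log2 difference 1.09, limma adjusted p = 1.41e-13) and fell in SK-N-BE(2) knockdown (33.5 and 90.1 FPKM, -1.40, limma adjusted p = 5.69e-15). Against the other empty vector control of each line these differences were 0.54 and -0.83. Of 8 tested members of the MAB21 and cGAS family apart from MAB21L2, 4 rose and 2 fell in SH-SY5Y knockdown. Besides MAB21L1, those that rose were MB21D2 (1.33), ITPRIPL2 (0.99) and ITPRIP (0.53). Their median log2 difference was 0.39, beside -0.01 over all genes tested.

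The secreted protein LRRC17, described in mouse cells as an inhibitor of osteoclast differentiation, had 35.5, 35.9 and 35.2 FPKM in SH-SY5Y knockdown, against 1.06, 1.36 and 1.26 FPKM in its control. The knockdown libraries lay within 1 FPKM of each other and far above every other group. The ratio of means was 29 (35.5 ± 0.356 and 1.23 ± 0.15 FPKM, SD, n = 3 each), and the log2 difference was 4.04 (SE 0.092). In SK-N-BE(2) knockdown it had 4.39, 5.49 and 5.41 FPKM, against 1.58, 1.74 and 1.49 FPKM in its control. It was higher there too (log2 difference 1.22), but only by 0.28 against the overexpression control, which had 3.86 to 4.22 FPKM. Neighbouring groups in its order of levels overlapped only between the SH-SY5Y overexpression control and SH-SY5Y overexpression, the lowest of the 8.

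LRRC17 was not called in SH-SY5Y overexpression (0.321, 0.646 and 0.458 FPKM, against 0.469, 0.597 and 0.842 FPKM in its control, limma adjusted p = 0.238). In SK-N-BE(2) overexpression it had 2.44, 2.82 and 3.07 FPKM, against 3.86, 4.22 and 3.9 FPKM in its control. It fell there without overlap (log2 difference -0.41, SE 0.092, limma adjusted p = 0.00295), whereas against the knockdown control the difference was 0.53, in the other direction. Of 10 genes of osteoclast differentiation in the table, 3 were tested, and of these CSF1, the macrophage colony-stimulating factor, rose in SH-SY5Y knockdown (6.62 and 2.13 FPKM, log2 difference 1.28, limma adjusted p = 2.06e-11) and in SK-N-BE(2) knockdown (6.42 and 1.05 FPKM, 1.85, limma adjusted p = 1.14e-13).

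C7 was the most abundant of the 7 genes in SH-SY5Y knockdown, per length. It had 143, 140 and 132 FPKM there, against 10.9, 10.5 and 9.89 FPKM in the knockdown control. Means were 138 ± 5.66 and 10.4 ± 0.494 FPKM (SD, n = 3 each), a ratio of 13.3 and a log2 difference of 3.61 (SE 0.046). SK-N-BE(2) knockdown libraries had 71.3, 73.7 and 74.5 FPKM, against 26.3, 25.8 and 26 FPKM in their control (log2 difference 1.46). C7 thus was higher in knockdown in both lines, and no neighbouring groups overlapped in its order of levels, which ran from SH-SY5Y knockdown down to the SH-SY5Y knockdown control.

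Against the overexpression controls, C7 moved in opposite directions in the lines. In SH-SY5Y it had 11.7, 11.2 and 11.2 FPKM, against 16.7, 14.6 and 15.4 FPKM in its control, and fell (log2 difference -0.42, SE 0.046, limma adjusted p = 9.47e-07, lower in 3 of 3 libraries). In SK-N-BE(2) it had 36.9, 35.8 and 38.2 FPKM, against 22.4, 22.1 and 23.7 FPKM in its control, and rose (0.68, SE 0.046, limma adjusted p = 6.23e-09, higher in 3 of 3 libraries). The difference between the lines, SH-SY5Y minus SK-N-BE(2), was -1.10 (SE 0.065, limma adjusted p = 3.6e-10). The directions depended on the control. Against the knockdown controls the difference between the lines was -0.38, with 0.12 in SH-SY5Y and 0.49 in SK-N-BE(2), both higher. In SH-SY5Y the knockdown control had 9.89 to 10.9 FPKM and the overexpression control 14.6 to 16.7 FPKM.

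Of 20 complement components apart from C7, 7 passed the filter, and 5 of these rose and 1 fell in SH-SY5Y knockdown, with a median log2 difference of 0.56. Under a filter of a mean of at least 1 FPKM only 3 were left, of which 1 rose and 1 fell, with a median of -0.13. C6, which joins the membrane attack complex just before C7, rose most (3 and 0.424 FPKM in knockdown and control, log2 difference 1.49). Its means were 0.154 to 0.662 FPKM in all other groups. C6 thus passed the filter on low values through SH-SY5Y knockdown alone, and its rise is a description. The C1 proteases C1R (0.76, and 1.47 against the overexpression control) and C1S (0.69, and 2.18) and the lectin pathway protease MASP2 (0.56, not called against the other control) also rose, and C5 fell (-0.28, limma adjusted p = 0.00102). C3, the central component, was not called against the knockdown control (7.9 and 8.71 FPKM) but was 2.30 higher on the log2 scale against the overexpression control. Of 9 tested regulators and receptors, 4 rose and 2 fell: vitronectin (VTN, 1.06), CD59 (0.56) and C1RL (0.87) rose, as did clusterin (CLU, 0.71), which rose by 2.43 in SK-N-BE(2) knockdown, and the C1 inhibitor SERPING1 (0.473 and 1.75 FPKM, -0.90, limma adjusted p = 2.85e-08) and SUSD4 (-1.06, and -0.56 against the other control) fell.

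The serotonin receptor HTR2B had 14.7, 13.4 and 18.2 FPKM in SH-SY5Y knockdown, against 0.497, 0.289 and 0.135 FPKM in its control. No library of another group reached 1 FPKM, so HTR2B passed the filter on low values through SH-SY5Y knockdown alone. Means were 15.4 ± 2.47 and 0.307 ± 0.182 FPKM (SD, n = 3 each), a ratio of 50.3, with a log2 difference of 3.65 (SE 0.11). In SK-N-BE(2) it had 0.583, 0.392 and 0.259 FPKM in knockdown, against 0.175 to 0.179 FPKM in the control (log2 difference 0.26, not called). All neighbours below SH-SY5Y knockdown overlapped in the order of levels. Every overexpression library and its control stayed below 1 FPKM, where the log2(FPKM + 1) scale leaves little room for a call: HTR2B had 0.164 to 0.34 FPKM in SH-SY5Y against 0.0685 to 0.21 FPKM in its control (limma adjusted p = 0.314), and 0.366 to 0.495 FPKM in SK-N-BE(2) against 0.428 to 0.721 FPKM in its control (limma adjusted p = 0.476).

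Of 28 genes for serotonin receptors, synthesis, transport and Gq signalling apart from HTR2B, 12 passed the filter, and 3 rose and 5 fell in SH-SY5Y knockdown (1 and 6 against the overexpression control, and also with libraries scaled to an equal sum). Over all genes tested, 26.3% were higher and 29.6% lower in SH-SY5Y knockdown. The other HTR2 subtypes, HTR2A and HTR2C, were below the filter. Among the serotonin receptors tested, HTR6 fell (0.553 and 1.27 FPKM, log2 difference -0.54, limma adjusted p = 0.000341). HTR1E (-0.17) and HTR7 (0.0040) were not called. Of the monoamine handling genes, those that fell were DDC, which makes serotonin and dopamine from their precursors (9.83 and 23.6 FPKM, log2 difference -1.19, limma adjusted p = 3.05e-11), the vesicular transporter SLC18A1 (-1.65) and the degrading enzyme MAOB (-1.61). The other degrading enzyme, MAOA, rose (10.9 and 9.36 FPKM, 0.20, limma adjusted p = 0.00589), with 10.7 FPKM in the overexpression control. PLCB4, a phospholipase C downstream of Gq, rose (12.3 and 6.09 FPKM, 0.90), and GNAQ, a Gq alpha subunit, fell (-0.30). In SK-N-BE(2) knockdown DDC instead rose (97.2 and 41.3 FPKM, 1.21, limma adjusted p = 3.35e-11, and 0.70 against the other control); the difference between the lines was not tested.

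KCTD12 had 124, 124 and 121 FPKM in SH-SY5Y knockdown, against 11.1, 11.4 and 11 FPKM in its control. The spread within each group was small beside the gap, with means of 123 ± 1.92 and 11.2 ± 0.162 FPKM (SD, n = 3 each), a ratio of 11 and a log2 difference of 3.34 (SE 0.059). SK-N-BE(2) knockdown had 10.4, 11.5 and 12.2 FPKM, against 34.3, 35.5 and 37 FPKM in its control. It was lower there without overlap, by a log2 difference of -1.57 against its own control and of -1.01 against the overexpression control. KCTD12 therefore was the member with opposite changes in the lines of which both were above 1 on the log2 scale, and both directions held against either control. SK-N-BE(2) knockdown and the SH-SY5Y knockdown control overlapped at about the same level.

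In overexpression KCTD12 was not called: 4.46, 4.85 and 4.38 FPKM in SH-SY5Y, against 5.14, 4.74 and 4.48 FPKM in its control (log2 difference -0.06, limma adjusted p = 0.514), and 21.4, 21.2 and 22.1 FPKM in SK-N-BE(2), against 24.1, 21.6 and 25.8 FPKM in its control (-0.14, limma adjusted p = 0.0882). The 2 empty vectors of SH-SY5Y differed more than that, with 11 to 11.4 FPKM in the knockdown control and 4.48 to 5.14 FPKM in the overexpression control. Of 17 other KCTD genes tested, 6 rose and 3 fell in SH-SY5Y knockdown, beside 26.3 and 29.6% of all genes tested. Their median was 0.04, and it was -0.06 against the other control and -0.05 with libraries scaled to an equal sum. Among them KCTD16, which like KCTD12 binds GABA-B receptors, rose (1.97 and 0.683 FPKM, log2 difference 0.82, limma adjusted p = 9.58e-06), and KCTD15 rose most (1.01, and 0.43 against the other control).

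GABBR1, the GABA-B subunit that binds the ligand, also rose in SH-SY5Y knockdown (6.28 and 3.45 FPKM, log2 difference 0.71, limma adjusted p = 3.4e-07), while its partner subunit GABBR2 was below the filter. The effectors mostly fell. Of 11 tested genes for the receptor and its effectors, 3 rose and 6 fell (median -0.39), beside 26.3 and 29.6% of all genes tested. The Go alpha subunit GNAO1 (0.882 and 8.36 FPKM, -2.32, limma adjusted p = 9.86e-17), the N-type calcium channel CACNA1B (-1.75) and the potassium channel KCNJ9 (-1.47) fell, and GNAI2 rose (0.74). In SK-N-BE(2) knockdown 5 of the 11 rose and 1 fell (median 0.14), and against the other control 3 rose and 3 fell (median -0.09). In SH-SY5Y overexpression 7 of the 11 fell (7 fell and 3 rose against the knockdown control), with GNAO1 at -0.42, CACNA1B at -0.66 (-0.25 against the knockdown control), KCNJ9 at -0.44 and GABBR1 at -0.32, where 17.2% of all genes tested were lower.

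**Figure D2:**
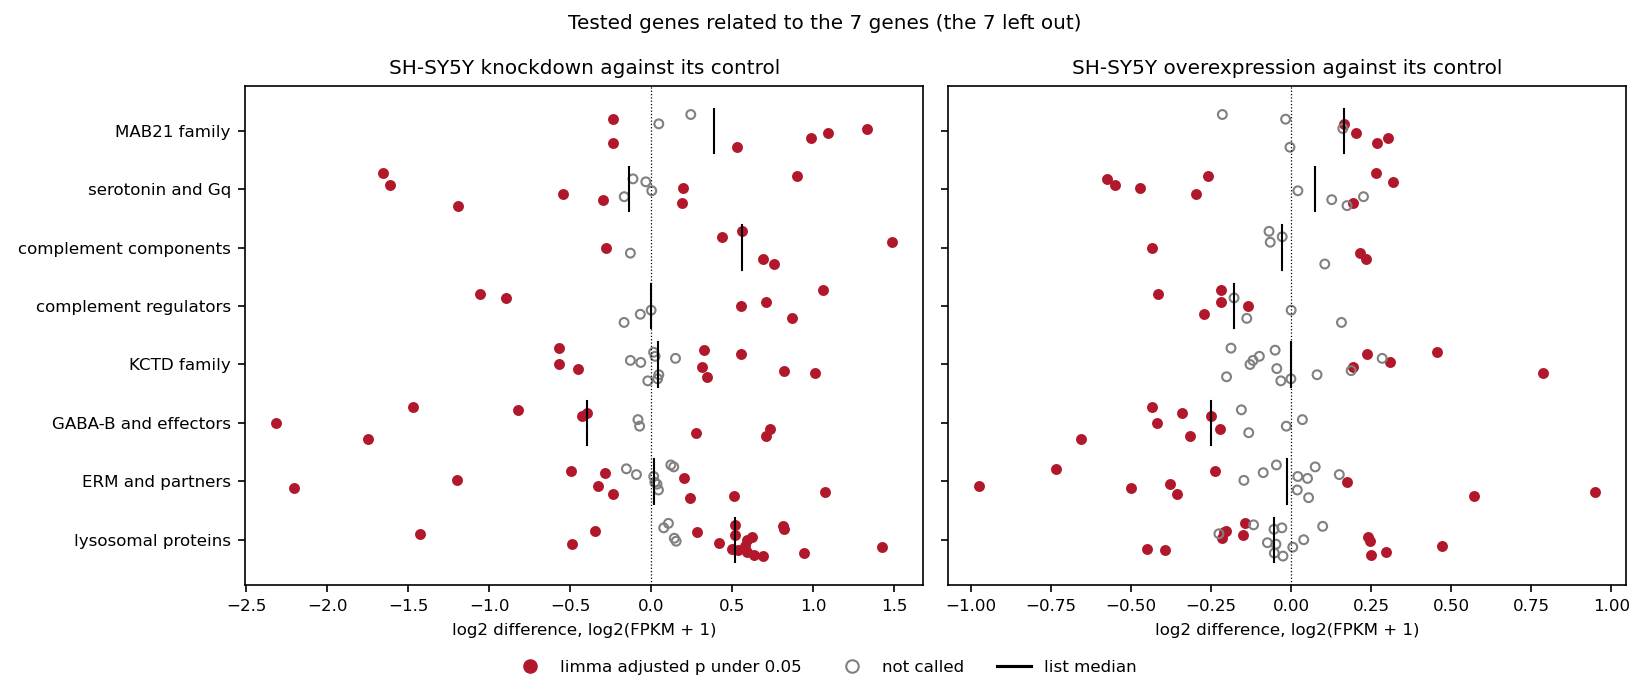
Log2 differences of tested genes related to the 7 genes, in SH-SY5Y knockdown (left) and SH-SY5Y overexpression (right), each against its own control. Each point is a gene, filled where the limma adjusted p was under 0.05, and black lines are list medians (0.52 for lysosomal proteins and -0.39 for the GABA-B list in knockdown). The horizontal scales of the panels differ.

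MSN rose least of the 7. It had 32.2, 32.7 and 34 FPKM in SH-SY5Y knockdown, against 19.5, 18.1 and 19.7 FPKM in its control, a ratio of means of 1.73 and a log2 difference of 0.76 (SE 0.042). In SK-N-BE(2) knockdown it had 7.11, 7.22 and 7.24 FPKM, against 36.2, 37.4 and 37.3 FPKM in the knockdown control, a log2 difference of -2.21. That control stood apart from the line's other groups, which had 6.61 to 7.51 FPKM in overexpression and 5.63 to 6.19 FPKM in the overexpression control. Set against the overexpression control, SK-N-BE(2) knockdown was higher by 0.25, so the opposite direction of MSN in the 2 lines rested on the knockdown control of SK-N-BE(2). The SK-N-BE(2) control levels differed 6.28-fold between the 2 empty vectors, more than for any other member measured above 1 FPKM in both.

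In SH-SY5Y overexpression MSN had 12.7, 12.5 and 12.5 FPKM, against 13.5, 14.1 and 13.5 FPKM in its control, and was lower by 0.12 (SE 0.042, limma adjusted p = 0.0367, lower in 3 of 3 libraries). This call was lost when any library of either group was left out. In SK-N-BE(2) overexpression it had 7.51, 6.61 and 7.19 FPKM, against 5.83, 5.63 and 6.19 FPKM in its control, and was higher by 0.23 (SE 0.042, limma adjusted p = 0.000455, higher in 3 of 3 libraries). The difference between the lines was -0.35 (SE 0.059, limma adjusted p = 0.00013). With the knockdown control in place of the overexpression control, the SK-N-BE(2) difference was -2.23 and the difference between the lines 1.66, both in the other direction.

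The moesin paralogs moved little in SH-SY5Y knockdown. Ezrin (EZR) fell (24.9 and 29.6 FPKM, log2 difference -0.24, limma adjusted p = 1.94e-05) and radixin (RDX) rose (11.3 and 9.71 FPKM, 0.20, limma adjusted p = 0.00296), a call lost when libraries were scaled to an equal sum. Of 18 tested ERM proteins, kinases and membrane partners apart from MSN, 4 rose and 6 fell, beside 26.3 and 29.6% of all genes tested. Their median was 0.02, and it was -0.0084 against the other control and -0.07 with libraries scaled to an equal sum. Among the adhesion receptors that ERM proteins bind, ICAM1 (1.07) and CD44 (0.51) rose (2.76 and 1.74 against the other control), and L1CAM fell (4.19 and 22.9 FPKM, -2.20, limma adjusted p = 2.34e-18), as did the sialomucin PODXL (-1.20). In SK-N-BE(2) knockdown CD44 fell (-1.62, limma adjusted p = 2.92e-11, and -0.57 against the other control) and L1CAM rose (0.52, limma adjusted p = 1.05e-08, and 0.23 against the other control).

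CD68 had 8.59, 10.1 and 11.6 FPKM in SH-SY5Y knockdown, against 1.68, 1.68 and 2.32 FPKM in its control. Means were 10.1 ± 1.5 and 1.89 ± 0.371 FPKM (SD, n = 3 each), a ratio of 5.33 and a log2 difference of 1.94 (SE 0.095). The SH-SY5Y overexpression control had only 0.036 to 0.0949 FPKM, and against it the difference was 3.36. CD68 reached 1 FPKM in no library outside SH-SY5Y knockdown and its control. In SK-N-BE(2) it had 0.105, 0.179 and 0.312 FPKM in knockdown, against 0.00477 to 0.00862 FPKM in the control (log2 difference 0.25). CD68 was thus neither among the highest ranks of SH-SY5Y knockdown nor lower in SK-N-BE(2) knockdown.

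Overexpression gave no call for CD68 in SH-SY5Y (0.046, 0.0246 and 0.117 FPKM, against 0.036, 0.0949 and 0.0824 FPKM in its control, limma adjusted p = 0.946) or in SK-N-BE(2) (0.164, 0.102 and 0.22 FPKM, against 0.0297, 0.0114 and 0.0905 FPKM in its control, limma adjusted p = 0.237). Values this low carry little weight on the log2(FPKM + 1) scale. None of 16 other macrophage and immune cell markers reached 1 FPKM in any group, and 10 of them were under 0.1 FPKM in every library. Their sum was 0.442 to 1.03 FPKM in SH-SY5Y knockdown and 0.429 to 0.999 FPKM in its control. Of 23 tested LAMP family and lysosomal genes apart from CD68, 16 rose and 3 fell in SH-SY5Y knockdown (median 0.52), and 16 rose and 1 fell in SK-N-BE(2) knockdown (median 0.33), beside 26.3 and 27.4% of all genes tested that were higher. The protease CTSB rose in both lines (48.9 and 24.9 FPKM in SH-SY5Y, 0.95, limma adjusted p = 2e-12, or 1.56 against the other control, and 28.3 and 17.4 FPKM in SK-N-BE(2), 0.67, limma adjusted p = 5.46e-10). SCARB2 (0.81), CTSS (1.42) and LAMP1 (0.62) rose in SH-SY5Y knockdown and LAMP5 fell (-1.43).

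**Figure D3:**
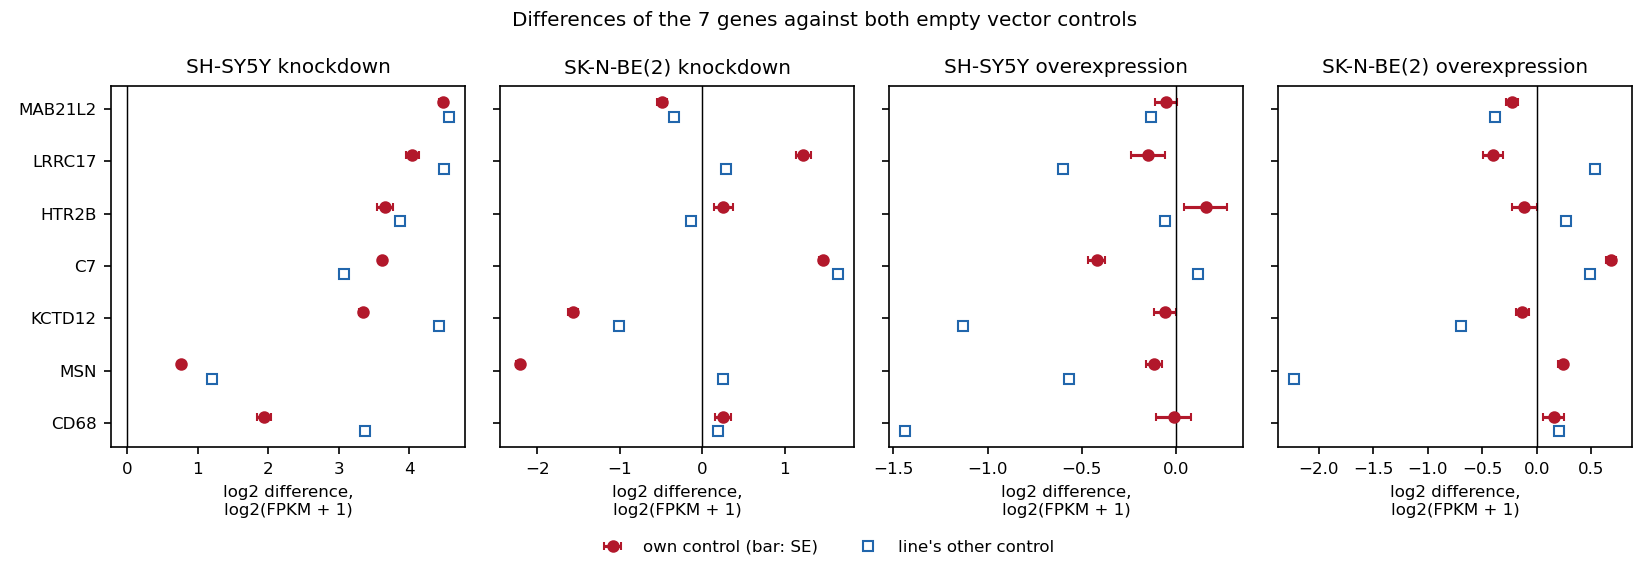
Log2 differences on the log2(FPKM + 1) scale for the 7 genes in the 4 comparisons. Filled circles are differences from the control of the same construct with bars of 1 SE, and open squares are differences from the line's other empty vector control. All 7 genes lie above 0 in SH-SY5Y knockdown with both controls, whereas MSN in SK-N-BE(2) knockdown lies at -2.21 with its own control and at 0.25 with the other. The horizontal scales of the panels differ.

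HTR2B and CD68 were below 1 FPKM in all overexpression libraries and their controls, and had passed the filter on low values through SH-SY5Y knockdown or its control, so they could hardly be called in overexpression. MAB21L2 and LRRC17 were also below 1 FPKM in every library of SH-SY5Y overexpression and its control, which left little room for a call in that line. Across the overexpression comparisons, 2 of the 7 genes were called in SH-SY5Y (C7 and MSN, both lower), where 32.6% of all genes tested were called. In SK-N-BE(2) 4 of 7 were called (C7 and MSN higher, MAB21L2 and LRRC17 lower), where 29.7% were called. The effect differed between the lines for 2 of 7, C7 and MSN, where 36.8% of all genes tested differed. The 2 empty vectors also differed, and since the knockdown controls took part in the choice of the genes, those differences are a description. In SH-SY5Y the knockdown control was the higher for LRRC17, KCTD12, MSN and CD68, by 0.45, 1.08, 0.45 and 1.43 on the log2 scale, and the lower for C7, by a difference of -0.54.

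Summed levels of markers of other cells and states moved in both directions in SH-SY5Y knockdown. The summed level of 13 fibroblast and stroma markers was 313 to 322 FPKM in SH-SY5Y knockdown and 165 to 170 FPKM in its control, and 74.5 to 76.1 FPKM in SH-SY5Y overexpression and 70.8 to 74.1 FPKM in that control. Of these, 12 reached 1 FPKM in knockdown and none was below 0.1 FPKM in all libraries. COL3A1 had 157 and 71.7 FPKM and LUM 34.8 and 5.89 FPKM in SH-SY5Y knockdown and its control, while FBLN1 had 15.8 and 21.4 FPKM. The sum of 16 mesenchymal neuroblastoma markers was 537 to 562 FPKM in SH-SY5Y knockdown and 165 to 172 FPKM in its control. Most of that rise was VIM, with means of 445 and 96.4 FPKM, while FN1 had 42.1 and 41.7 FPKM and WWTR1 1.19 and 1.52 FPKM. Of 11 tested mesenchymal markers, 8 rose and 1 fell. The sum of 14 adrenergic markers was 729 to 763 FPKM in knockdown and 1070 to 1090 FPKM in control. Schwann cell markers summed to 16.8 to 17.6 FPKM and 13.2 to 14.3 FPKM in SH-SY5Y knockdown and its control, endothelial markers to 3.2 to 4.09 FPKM in knockdown and 6.1 to 6.72 FPKM in control, and epithelial markers to 2.9 to 3.58 FPKM in knockdown and 4 to 4.98 FPKM in control. In SK-N-BE(2) knockdown and its control, fibroblast and stroma markers summed to 180 to 208 and 162 to 169 FPKM. Mesenchymal markers summed to 301 to 316 and 276 to 281 FPKM there, and adrenergic markers to 694 to 871 and 982 to 1000 FPKM. In the overexpression control of SK-N-BE(2), fibroblast and stroma markers summed to 192 to 200 FPKM and mesenchymal markers to 303 to 322 FPKM. Both ranges overlapped those of the knockdown, so these sums were higher in knockdown only against its own control. Adrenergic markers summed to 1340 to 1440 FPKM in that overexpression control. MAB21L2, KCTD12 and MSN were lower in SK-N-BE(2) knockdown than in its own control. In bulk RNA, more cells of a type and more RNA per cell cannot be told apart, and the part of these markers in the rises of the 7 genes was not tested.

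The genes most like each member over the 24 libraries differed between members. By Pearson's r of log2(FPKM + 1), among 9141 genes with a group mean of at least 5 FPKM, MAB21L2 was followed most closely by LPAR1 (r = 0.99), DEPTOR (0.99) and SERPINF1 (0.99). Each had a lower mean in the SH-SY5Y groups other than knockdown than in SH-SY5Y knockdown or any SK-N-BE(2) group. Their levels differed, and SERPINF1 was at 4.43 to 6.67 FPKM in those lower groups. HTR2B was followed by BMPER (0.97), PPP2R2B (0.97) and NFKBIA (0.96), and CD68 by GPX8 (0.99), MVP (0.98) and FAM46C (0.98). LRRC17 was closest to ADRA2A (0.96), THBS3 (0.95) and SLC35D2 (0.95), C7 to DNM3OS (0.95), FERMT2 (0.93) and SLC35D2 (0.91), KCTD12 to AHSA2 (0.97), EMILIN1 (0.96) and SIX5 (0.95), and MSN to TOM1L1 (0.92), COL4A1 (0.92) and BCHE (0.92). Among the members, LRRC17 went with HTR2B (r = 0.91) and C7 (0.90), and MSN went least with MAB21L2 (-0.14) and C7 (0.12). These values describe libraries that share groups, vectors and cell lines.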

How the data were processed

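The deposited table gives FPKM per gene, made by the authors, for 24 libraries. Per the labels' protocols, RNA was extracted with TRIzol and libraries were strand-specific. Per the submitters' processing notes, the tools were FastQC 0.11.2, STAR and StringTie 1.3.1c, with hg38; the annotation release and the counting options are not named in these sources. FPKM hold no counts, so the depth is unknown and no counting interval is given. Groups and replicate numbers come from sample titles.

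Values were tested as log2(FPKM + 1) with limma 3.58.1 (R 4.3.3; trended, robust variances) over 15903 genes that reached 1 FPKM in 3 or more libraries, in a fit of 8 groups and 24 libraries with 16 residual degrees of freedom. Adjusted p-values are limma's, by Benjamini-Hochberg over all genes; shares of genes called leave out NDUFS6. The fit was tested on simulated data. The 7 genes and the gene lists were chosen with earlier results of these data known. Genes named beside the members were the 3 most correlated with each, up to 4 called genes of each list by smallest adjusted p, and partners or paralogs of a member. Positions are from GENCODE 29 and promoters from RefSeq GRCh38.p14. Alternatives were another pseudocount, filter, scaling, control, fit or block, and leaving out each library.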

Additional observations from a re-analysis of the deposited data

Results flagged for a closer look

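Overexpression of NDUFS6 moved C7 and MSN differently in the 2 lines, by a test of the difference itself. For C7 the SH-SY5Y effect minus the SK-N-BE(2) effect was -1.10 on the log2 scale (limma adjusted p = 3.6e-10), from -0.42 in SH-SY5Y and 0.68 in SK-N-BE(2). For MSN it was -0.35 (limma adjusted p = 0.00013), from -0.12 in SH-SY5Y and 0.23 in SK-N-BE(2). Against the other empty vector control of each line the difference of C7 was -0.38, from 0.12 in SH-SY5Y and 0.49 in SK-N-BE(2), and that of MSN turned to 1.66. NDUFS6 itself was at 199 to 214 FPKM in SH-SY5Y overexpression and at 14.9 to 19 FPKM in SK-N-BE(2) overexpression; the part of this gap in the differences was not tested.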

How the results depend on the processing

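In SH-SY5Y overexpression 2 members were called, 1 with no filter, with libraries scaled to an equal sum or by median ratio, and 1 to 1 over the fits that left out a library, where MSN was lost each time. In the difference between lines 2 were called, and in SK-N-BE(2) overexpression 4, with 3 in a fit of only the groups compared, where MSN was not called.

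The other empty vector control of an overexpression is the knockdown control, which took part in choosing the genes, so counts of members against it are a description: 5 were past the threshold in SH-SY5Y overexpression and 6 in the difference between lines. Differences turned round for C7 (0.12) and HTR2B (-0.057) in SH-SY5Y overexpression, for LRRC17 (0.53), HTR2B (0.27) and MSN (-2.23) in SK-N-BE(2) overexpression, for LRRC17 (-1.13), HTR2B (-0.33), KCTD12 (-0.43) and MSN (1.66) in the difference between lines, and for HTR2B (-0.13) and MSN (0.25) in SK-N-BE(2) knockdown. Of all genes, 8809 were called in SH-SY5Y overexpression against the other control and 5185 against its own; in the difference between lines it was 8458 and 5849. The cause was not tested.

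Values near 0 also turned sign: MAB21L2 in the difference between lines with a pseudocount of 0.1 (-0.13), and CD68 in SH-SY5Y overexpression over the fits that left out a library (-0.049 to 0.014, above 0 without overexpression replicate 2 and, at 0.0038, without control replicate 2). With that pseudocount the knockdown rise of MAB21L2 in SH-SY5Y was 6.76 and that of HTR2B 5.34. In SK-N-BE(2) overexpression 4715 genes were called, 966 in a fit of only the groups compared, 2754 without overexpression replicate 2 and 3082 without control replicate 3. Genes higher among those called were 56.2% in that smaller fit and 43.4% in the fit of all 8 groups. Scaling to an equal sum moved this share to 32.7% there, to 61.7% (from 50.2%) in the difference between lines, to 35.4% (from 47%) in SH-SY5Y knockdown, where it shifted the median of all genes to -0.10, and to 60.8% (from 49.3%) in SK-N-BE(2) knockdown.

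Of 116 list genes called in SH-SY5Y knockdown, 100 kept call and direction against the other control, 6 lost the call and 10 turned; in SK-N-BE(2) knockdown 73 of 106 kept both. Same-numbered libraries did not deviate together in every pair (correlations of -0.076 to 0.37). These correlations cannot settle whether the numbers pair the samples, and the titles do not say. With a replicate block the members called stayed at 2 in SH-SY5Y overexpression, 4 in SK-N-BE(2) overexpression and 2 in their difference. They stayed at 7 in SH-SY5Y knockdown and 6 in SK-N-BE(2) knockdown, and the block changed no call of a member. Without read counts, values below 1 FPKM cannot be given a counting error.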
